A study of Mus musculus with 6 samples.

Results

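Complex I subunit genes were examined in RNA of sorted mouse haematopoietic stem cells (HSCs). The genes were those named Ndufab1, or Ndufa, Ndufb, Ndufc, Ndufs or Ndufv followed only by digits, which leaves out the assembly factors of the Ndufaf family. This rule used the names alone and gave 37 of the 25033 listed gene symbols. All 37 had enough counts to be tested. GFP+ HSCs, labelled C57BL/6J and 6 months of age, had been sorted from bone marrow of mice that had received HSCs treated with a miR-31-5p inhibitor (3 libraries) or with a control RNA (3 libraries). Treatment was thus given to the donor HSCs before transfer, and all 6 libraries came from cells recovered from recipients. The labels do not say whether each library came from a separate mouse or from pooled mice, so p-values measure the spread between these libraries, which may be technical. The libraries had been made from Trizol-extracted RNA with an mRNA kit. The values are read counts per gene, given below as CPM, counts per 1000000 of the TMM-scaled library total.

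Complex I is the largest enzyme of the mitochondrial respiratory chain. It takes electrons from NADH, passes them over a chain of iron-sulphur clusters to ubiquinone, and pumps protons across the inner mitochondrial membrane. Its N module binds NADH, its Q module reduces ubiquinone, and its membrane arm, divided into a proximal and a distal part, carries out the pumping. HSCs are known for relying on glycolysis when quiescent and on mitochondrial respiration when they differentiate. The nuclear genes treated here encode the core subunits of the N and Q modules and the accessory subunits of the whole complex. The mitochondrially encoded core subunits of the membrane arm and Ndufb1 are not analysed here.

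Libraries held 16873188 to 19496200 counts in the inhibitor group and 19866738 to 21245861 counts in the control group, so that 3 counts corresponded to 0.141 to 0.178 CPM. Control library 1 lay apart from control libraries 2 and 3 on the second principal component, which held 9.48% of the variance, against 70.8% for the first component that separated the groups. Counts, medians and sums of the subunit genes are therefore given for 3 against 3 libraries. Beside them stand the values for the 3 inhibitor libraries against control libraries 2 and 3 alone. Where a gene or marker list has only 1 set of values, these are for 3 against 3. The 2 comparisons share libraries and are not independent of each other. All 10 HSC and progenitor markers were detected, with a summed level of 1084 to 1127 CPM before scaling in inhibitor libraries and 1004 to 1062 CPM in control libraries. Among them Mecom, an HSC transcription factor, was close to the detection floor at 0.237 to 0.564 CPM in inhibitor libraries and 0.445 to 0.755 CPM in control libraries. Neutrophil granule markers summed to more, 5730 to 5887 CPM in inhibitor libraries and 6483 to 7184 CPM in control libraries, so the sorted cells also held abundant transcripts of the myeloid lineage.

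Complex I subunit genes were lower in the inhibitor libraries. In the comparison of 3 against 3, 21 of 37 genes fell, 0 rose and 16 did not pass the test (edgeR's quasi-likelihood test, Benjamini-Hochberg adjusted p under 0.05 over all 12978 genes tested). The share that fell was 56.8%, against 20.1% of all tested genes that were lower, 20.4% that were higher and 40.5% called in either direction. Against control libraries 2 and 3 alone, 19 of 37 fell, 1 rose and 17 did not pass, among 13196 genes tested. That share was 51.4%, against 21.5% of all tested genes that were lower, 21.6% that were higher and 43.1% called in either direction.

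The changes were small in size. The median log2 change over the 37 genes, inhibitor over control, was -0.29 in the comparison of 3 against 3, with a range from -0.82 for Ndufb6 to 0.22 for Ndufa6, and 34 of 37 were below zero. With control libraries 2 and 3 as the controls the median was -0.19, the range -0.65 to 0.35, and 29 of 37 were below zero. The medians over all tested genes were -0.0094 and -0.0019. In 23 genes all 3 inhibitor libraries lay below all 3 control libraries, a pattern held by 26.5% of all tested genes. In 24 genes they lay below both control library 2 and control library 3, a pattern held by 31.1% of all tested genes.

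Added together, the 37 genes had 1794.2, 1780.3 and 1812.0 CPM in inhibitor libraries 1 to 3, against 2412.6, 1967.4 and 2007.6 CPM in control libraries 1 to 3. Every inhibitor sum was below every control sum, and control library 1 was far above the other two controls. The mean was 1795.5 ± 15.9 CPM in inhibitor libraries and 2129.2 ± 246.3 CPM in control libraries (SD, n = 3 each), a difference of -15.7%. The mean of control libraries 2 and 3 was 1987.5 CPM, against which the difference was -9.66%. In a bulk sample, fewer cells of a type rich in these transcripts and less of the RNA per cell cannot be told apart.

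**Figure D1:**
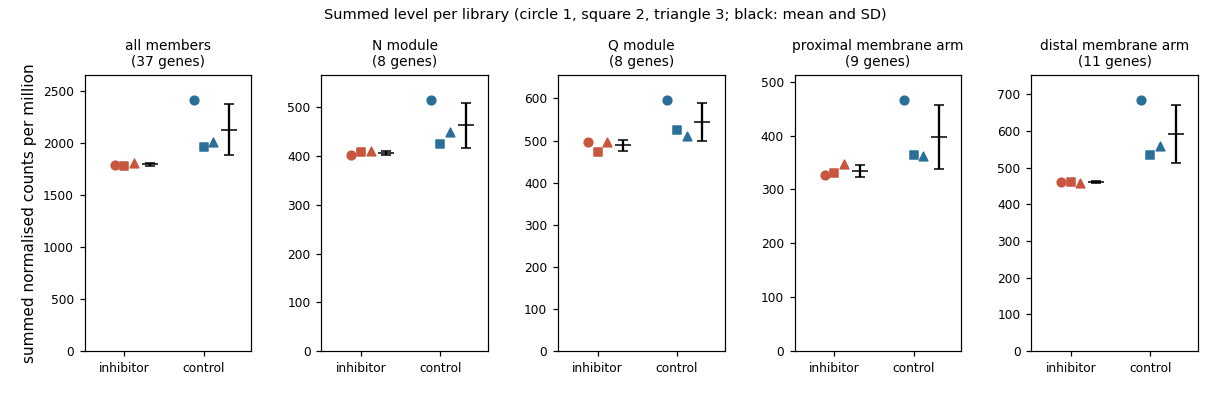
Summed level of the complex I subunit genes in each library (CPM, vertical axis), by structural module, with inhibitor libraries left of control libraries. Circles, squares and triangles are libraries 1, 2 and 3, and the black marks are the mean and SD of each group. In every panel control library 1 is the highest point, and the 3 inhibitor sums over all genes lie between 1780.3 and 1812.0 CPM.

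Control library 1 was the highest control for 34 of the 37 genes, which held for 43.5% of all tested genes, and the highest of all 6 libraries for 31. Its level exceeded the mean of control libraries 2 and 3 by a median of 0.30 on the log2 scale over the 37 genes, against 0.018 over all tested genes. All 21 genes that fell in the comparison of 3 against 3 had a smaller difference without control library 1. Ndufb3, Ndufc2 and Ndufs8 no longer passed the test without it, while Ndufa3 and Ndufa6 passed only without it. A further library was then left out in turn, which includes the fits with control library 2 or 3 as the lone control. The median log2 change over the 37 genes ran from -0.19 to -0.14 in these fits.

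By module, the largest share of genes fell in the distal membrane arm. There 9 of 11 genes fell in the comparison of 3 against 3 and 8 of 11 against control libraries 2 and 3, with median log2 changes of -0.42 and -0.22. In the proximal membrane arm 4 of 9 fell in each comparison, though not the same 4, with medians of -0.33 and -0.17. In the Q module 5 of 8 fell, with a median of -0.20, and against control libraries 2 and 3, 4 fell and 1 rose, with a median of -0.13. In the N module Ndufa12 and Ndufv1 fell in each comparison, 2 of 8 genes, with medians of -0.23 and -0.07. Of all tested genes 20.1% and 21.5% fell, so the N module count was near that background. The difference between modules was not tested.

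The differences in summed level ran in the order distal arm, proximal arm, N module and Q module in both comparisons. Distal arm genes summed to 461.7, 461.8 and 458.2 CPM in inhibitor libraries 1 to 3, against 684.0, 534.8 and 558.4 CPM in control libraries 1 to 3, a difference of -22.3% from the mean of all controls and -15.7% from control libraries 2 and 3. For the proximal arm, the sums were 327.2, 330.1 and 347.3 CPM in inhibitor libraries, against 465.4, 363.4 and 362.4 CPM in control libraries, and the differences were -15.7% and -7.74%. N module genes summed to 401.8, 407.2 and 410.7 CPM in inhibitor libraries and to 514.0, 424.3 and 449.5 CPM in control libraries, and the differences were -12.1% and -6.94%. In the Q module the sums were 495.7, 473.7 and 495.7 CPM in inhibitor libraries and 595.4, 524.3 and 510.4 CPM in control libraries, with differences of -10.1% and -5.60%. No module's inhibitor sums overlapped its control sums.

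Grouped by function, 4 of the 7 core subunits fell in the comparison of 3 against 3 and 3 of 7 against control libraries 2 and 3, with median log2 changes of -0.17 and -0.12. The core subunits are those shared with bacterial complex I that carry the flavin and the iron-sulphur clusters. Of the 29 accessory subunits, which surround the core, 16 fell, and against control libraries 2 and 3, 15 fell and 1 rose, with medians of -0.33 and -0.20. Whether core and accessory subunits differed from each other was not tested.

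**Figure D2:**
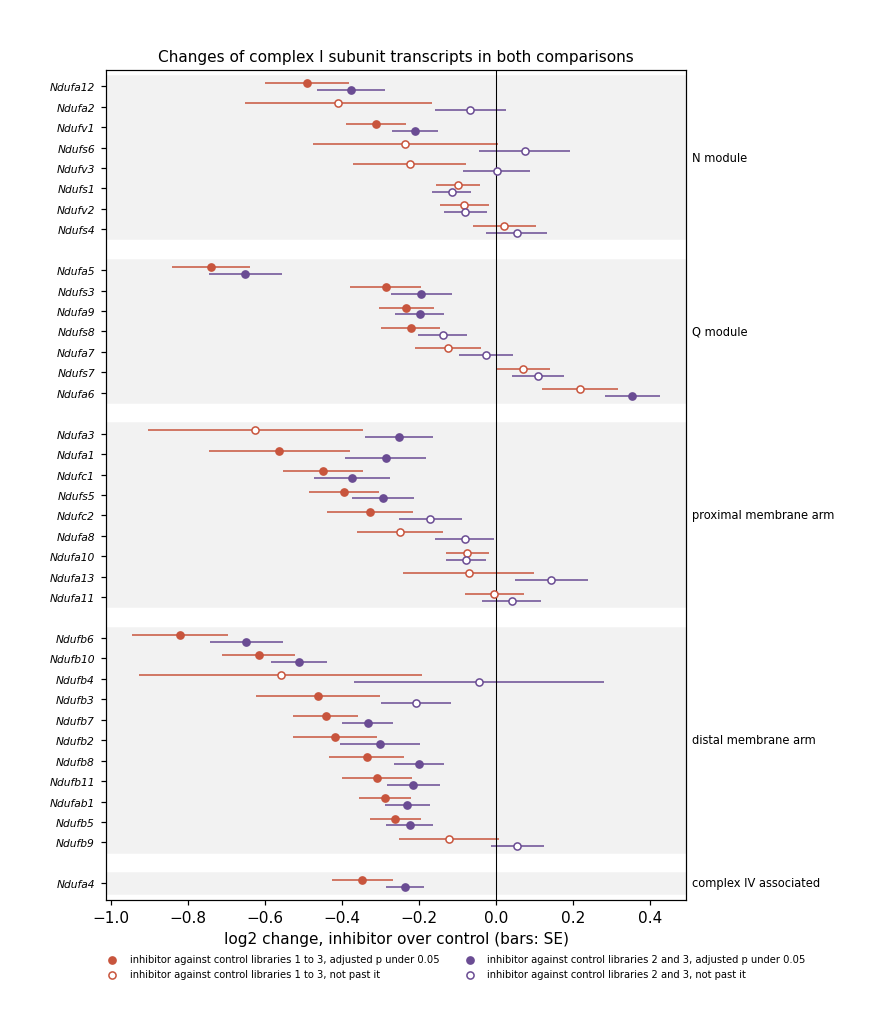
Log2 change of 36 complex I subunit genes, inhibitor over control, in the comparison of 3 against 3 libraries and against control libraries 2 and 3 alone, with bars of 1 standard error, ordered by module. Filled points passed the threshold and open points did not. The points reach down to -0.82 for Ndufb6 in the distal arm and -0.74 for Ndufa5 in the Q module, and Ndufa6 is the only gene past the threshold on the positive side, at 0.35 against control libraries 2 and 3.

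The agent of the study acts on miR-31-5p, a microRNA that pairs with messenger RNAs mainly through its seed, so the seed was looked for in the subunit genes. The mature RefSeq sequence lies on chromosome 4, 88910614 to 88910635, on the minus strand (GRCm38.p6), and is shown with the seed (bases 2 to 8) in capitals because that is the stretch a target site would match.
miR-31-5p: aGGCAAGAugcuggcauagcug
A match of 7 bases to the seed, TCTTGCC, was in the longest annotated 3′ UTR of 0 of the 37 genes. It was in 2105 of 19447 genes with an annotated 3′ UTR, or 10.8%. The 3′ UTRs of the subunit genes were short, with a median of 159 bases against 868 bases over all genes. The absence of these letters from these stretches says nothing of the microRNA's effect on the genes.

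Promoters were compared because nuclear subunit genes of the respiratory chain are classically controlled by NRF1, GABPA (NRF2), YY1 and ERRα. RefSeq promoter windows of 300 bases, from 250 before to 50 after the transcription start (GRCm38.p6), were at hand for 33 of the 37 genes and were searched on both strands. The NRF1 palindromic motif was in the windows of 7 of 33 genes (21.2%), against 5.19% of all genes with a window and 11.3% of the tested ones. GABPA's motif CCGGAAG was in 4 (12.1%), against 9.93% of all and 19.8% of tested genes. For YY1, AANATGGCG was in 7 (21.2%), against 2.76% of all and 5.78% of tested genes. The ERRα motif TCAAGGTCA was in 0, against 0.466% of all and 0.315% of tested genes. Any of the 4 motifs was in 17 of 33 genes (51.5%), against 16.2% of all and 32.4% of tested genes. A match is a description of the letters and not a binding site.

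The windows of the 3 genes with the largest fall past the threshold, and of the gene that rose against control libraries 2 and 3, are shown so that their letters can be compared, with motif matches in capitals. Ndufb6 (chr4:40279372-40279671, minus strand) holds the GABPA motif 232 bases before the start. Ndufa5 (chr6:24527641-24527940, minus strand, one of its annotated starts) holds the NRF1 motif 26 bases before the start. Ndufb10 (chr17:24724374-24724673, minus strand) holds none of the motifs, and Ndufa6 (chr15:82354242-82354541, minus strand) holds the NRF1 motif from base 24 of the transcript.
Ndufb6: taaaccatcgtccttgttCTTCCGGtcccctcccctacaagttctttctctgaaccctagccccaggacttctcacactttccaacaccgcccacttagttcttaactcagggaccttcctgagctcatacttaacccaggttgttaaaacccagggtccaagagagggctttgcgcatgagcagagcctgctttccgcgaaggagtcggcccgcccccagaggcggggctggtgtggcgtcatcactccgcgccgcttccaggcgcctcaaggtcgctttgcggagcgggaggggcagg
Ndufa5: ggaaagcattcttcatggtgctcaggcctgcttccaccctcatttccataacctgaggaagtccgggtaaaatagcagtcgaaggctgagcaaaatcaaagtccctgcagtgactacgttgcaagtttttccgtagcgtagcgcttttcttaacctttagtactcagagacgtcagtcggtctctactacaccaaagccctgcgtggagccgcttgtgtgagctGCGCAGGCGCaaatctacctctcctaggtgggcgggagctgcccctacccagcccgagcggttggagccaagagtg
Ndufb10: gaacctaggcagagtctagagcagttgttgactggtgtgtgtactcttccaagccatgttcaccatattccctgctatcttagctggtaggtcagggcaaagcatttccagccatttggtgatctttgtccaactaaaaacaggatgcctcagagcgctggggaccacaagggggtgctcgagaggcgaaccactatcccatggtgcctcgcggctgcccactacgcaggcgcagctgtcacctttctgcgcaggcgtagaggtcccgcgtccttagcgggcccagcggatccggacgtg
Ndufa6: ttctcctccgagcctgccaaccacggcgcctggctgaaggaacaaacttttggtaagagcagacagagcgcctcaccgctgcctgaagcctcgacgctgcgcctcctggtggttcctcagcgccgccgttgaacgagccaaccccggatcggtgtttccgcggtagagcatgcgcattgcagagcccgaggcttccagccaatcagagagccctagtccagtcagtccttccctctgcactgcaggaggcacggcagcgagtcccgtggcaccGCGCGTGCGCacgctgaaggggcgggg
A motif of this set was thus present in 2 of the 3 windows of genes that fell and in that of the gene that rose.

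Distal membrane arm. Ndufb6 (mm10 chromosome 4, 40270591 to 40279421) encodes a small membrane-spanning accessory subunit. It had 17.4, 19.8 and 18.9 CPM in inhibitor libraries 1 to 3, against 40.6, 29.1 and 29.3 CPM in control libraries 1 to 3. All inhibitor values were below all control values, and control library 1 was the highest. Ndufb6 fell, with a log2 change of -0.82 ± 0.12 (SE; adjusted p = 0.000121), and of -0.65 ± 0.10 against control libraries 2 and 3 (adjusted p = 2.74e-07). This was the largest fall in the comparison of 3 against 3.

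Ndufb10 (mm10 chromosome 17, 24722060 to 24724423) encodes an accessory subunit on the intermembrane space side that is held by disulphide bonds. It had 39.1, 44.4 and 43.4 CPM in inhibitor libraries 1 to 3, against 74.1, 55.5 and 64.7 CPM in control libraries 1 to 3. The groups did not overlap, and the control values were spread more widely than the inhibitor values. The log2 change was -0.62 ± 0.09 (adjusted p = 0.000135), and -0.51 ± 0.07 against control libraries 2 and 3 (adjusted p = 1.63e-07).

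Ndufb7 (mm10 chromosome 8, 83566758 to 83571623) encodes another subunit of the intermembrane space face with paired cysteines. Its level was 44.7, 46.1 and 45.4 CPM in inhibitor libraries 1 to 3, against 70.9, 55.9 and 58.3 CPM in control libraries 1 to 3. All inhibitor libraries were lower, with a log2 change of -0.44 ± 0.08 (adjusted p = 0.000675) and of -0.33 ± 0.07 against control libraries 2 and 3 (adjusted p = 6.89e-05). Ndufab1 (mm10 chromosome 7, 122086815 to 122101848) encodes the mitochondrial acyl carrier protein, which is a subunit of the complex and also serves mitochondrial fatty acid and lipoate synthesis. It had 68.2, 65.4 and 62.8 CPM in inhibitor libraries 1 to 3, against 86.6, 75.5 and 77.9 CPM in control libraries 1 to 3. The groups did not overlap, and the log2 change was -0.29 ± 0.07 (adjusted p = 0.00334), and -0.23 ± 0.06 against control libraries 2 and 3 (adjusted p = 0.00144).

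Ndufb3 (mm10 chromosome 1, 58586397 to 58595964), a small membrane subunit, had 23.6, 23.5 and 23.3 CPM in inhibitor libraries 1 to 3, against 42.9, 26.1 and 28.0 CPM in control libraries 1 to 3. Control library 1 stood well above the other two controls, though these also exceeded every inhibitor library. Its log2 change of -0.46 ± 0.16 passed with 3 against 3 (adjusted p = 0.040) but did not pass the test against control libraries 2 and 3, where the log2 difference was -0.21 ± 0.09 (adjusted p = 0.062). Ndufb9 (mm10 chromosome 15, 58933801 to 58939516), an LYR-motif protein that binds the acyl carrier protein, had 59.7, 53.5 and 65.8 CPM in inhibitor libraries 1 to 3, against 80.2, 57.0 and 57.6 CPM in control libraries 1 to 3. The groups overlapped, and the log2 difference was -0.12 ± 0.13 (adjusted p = 0.488), and 0.06 ± 0.07 against control libraries 2 and 3 (adjusted p = 0.549), of opposite sign. The other distal arm genes that fell in both comparisons were Ndufb2, Ndufb5, Ndufb8 and the X-linked Ndufb11, with log2 changes of -0.42 ± 0.11, -0.26 ± 0.07, -0.34 ± 0.10 and -0.31 ± 0.09 in the comparison of 3 against 3.

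The remaining distal arm gene, Ndufb4, was the least abundant of the 37, with 30, 30 and 48 counts in inhibitor libraries 1 to 3 and 96, 51 and 35 counts in control libraries 1 to 3. Ndufb4c, a protein-coding gene whose RefSeq name marks it as a relative, had 696, 614 and 622 counts in inhibitor libraries and 869, 690 and 779 counts in control libraries. Whether reads of one were assigned to the other was not tested. Together they had 37.3, 37.6 and 39.6 CPM in inhibitor libraries and 48.5, 37.0 and 38.3 CPM in control libraries, and these values overlapped.

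Proximal membrane arm. Ndufc1 (mm10 chromosome 3, 51405479 to 51408955) and Ndufc2 (mm10 chromosome 7, 97400003 to 97407800) encode small subunits that sit together in this part of the arm. Ndufc1 had 17.9, 20.5 and 21.6 CPM in inhibitor libraries 1 to 3, against 30.2, 25.1 and 26.6 CPM in control libraries 1 to 3. The groups did not overlap, with a log2 change of -0.45 ± 0.10 (adjusted p = 0.00286), and -0.37 ± 0.10 against control libraries 2 and 3 (adjusted p = 0.00192). Ndufc2 had 34.6, 30.4 and 33.8 CPM in inhibitor libraries 1 to 3, against 50.01, 36.5 and 37.6 CPM in control libraries 1 to 3. It was also lower in every inhibitor library, and its log2 change of -0.33 ± 0.11 passed with 3 against 3 (adjusted p = 0.0299) but not against control libraries 2 and 3, with a log2 difference of -0.17 ± 0.08 (adjusted p = 0.0873).

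Ndufs5 (mm10 chromosome 4, 123712710 to 123718186) encodes an intermembrane space subunit with twin cysteine motifs. Its level was 29.6, 31.6 and 30.4 CPM in inhibitor libraries 1 to 3, against 45.6, 37.1 and 37.6 CPM in control libraries 1 to 3. Inhibitor values were tightly grouped and below all controls, with a log2 change of -0.39 ± 0.09 (adjusted p = 0.00291), and -0.29 ± 0.08 against control libraries 2 and 3 (adjusted p = 0.00282). Ndufa3 (mm10 chromosome 7, 3617347 to 3620165), a single-span membrane subunit with a transcript of 351 bases by the deposited length and 515 by the reference, had 25.2, 28.0 and 24.9 CPM in inhibitor libraries 1 to 3, against 58.6, 30.3 and 31.5 CPM in control libraries 1 to 3. Control library 1 was far above the other controls, by 0.92 on the log2 scale, the second largest such excess of the set after that of Ndufb4. With that library the log2 difference of -0.62 ± 0.28 did not pass the test (adjusted p = 0.129). Against control libraries 2 and 3 Ndufa3 fell, at -0.25 ± 0.09 on the log2 scale (adjusted p = 0.0193).

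Ndufa11 (mm10 chromosome 17, 56717762 to 56724248) encodes a membrane subunit at the boundary with complex III in supercomplexes. It had 38.4, 37.5 and 40.3 CPM in inhibitor libraries 1 to 3, against 41.3, 38.4 and 36.8 CPM in control libraries 1 to 3. The groups overlapped, and the log2 difference was -0.0040 ± 0.08 (adjusted p = 0.973), and 0.04 ± 0.08 against control libraries 2 and 3 (adjusted p = 0.707). X-linked Ndufa1 also fell in both comparisons, with log2 changes of -0.56 ± 0.18 and -0.29 ± 0.10. Ndufa8, Ndufa10, a subunit related to nucleoside kinases, and Ndufa13, also known as GRIM-19, did not pass the test in either comparison, with log2 differences of -0.25 ± 0.11, -0.07 ± 0.06 and -0.07 ± 0.17 in the comparison of 3 against 3.

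Q module. Ndufa5 (mm10 chromosome 6, 24518662 to 24527690) encodes an accessory subunit of the peripheral arm near its foot. It had 18.8, 18.2 and 19.9 CPM in inhibitor libraries 1 to 3, against 35.6, 31.5 and 28.0 CPM in control libraries 1 to 3. All inhibitor values lay between 18.2 and 19.9 CPM, below every control. Ndufa5 fell, with a log2 change of -0.74 ± 0.10 (adjusted p = 3.42e-05), and of -0.65 ± 0.10 against control libraries 2 and 3 (adjusted p = 2.6e-07), level with Ndufb6 in that comparison.

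Ndufa9 (mm10 chromosome 6, 126821863 to 126849144) binds NADPH and lies near the ubiquinone entry site. Its level was 70.9, 59.5 and 63.6 CPM in inhibitor libraries 1 to 3, against 79.8, 72.3 and 76.1 CPM in control libraries 1 to 3. The groups did not overlap, with a log2 change of -0.23 ± 0.07 (adjusted p = 0.0181), and -0.20 ± 0.06 against control libraries 2 and 3 (adjusted p = 0.0108). Ndufs3 (mm10 chromosome 2, 90894627 to 90904721), a core subunit and an early building block of the peripheral arm, had 35.3, 34.4 and 40.1 CPM in inhibitor libraries 1 to 3, against 50.3, 43.1 and 40.5 CPM in control libraries 1 to 3. The highest inhibitor library and the lowest control library were nearly level. The log2 change was -0.29 ± 0.09 (adjusted p = 0.0208), and -0.19 ± 0.08 against control libraries 2 and 3 (adjusted p = 0.0434).

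Ndufs8 (mm10 chromosome 19, 3908863 to 3912774), a core subunit that carries iron-sulphur clusters, had 58.1, 55.3 and 61.8 CPM in inhibitor libraries 1 to 3, against 75.9, 65.3 and 63.0 CPM in control libraries 1 to 3. Its log2 change of -0.22 ± 0.08 passed with 3 against 3 (adjusted p = 0.0312) but not against control libraries 2 and 3, where the log2 difference was -0.14 ± 0.06 (adjusted p = 0.075), although no inhibitor library reached a control library.

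Ndufa6 (mm10 chromosome 15, 82350139 to 82354291), an LYR-motif protein that like Ndufb9 binds the acyl carrier protein, was the gene with the most positive change. It had 53.3, 53.2 and 57.0 CPM in inhibitor libraries 1 to 3, against 55.4, 45.3 and 39.9 CPM in control libraries 1 to 3. Every inhibitor library was above control libraries 2 and 3, while control library 1 lay within the inhibitor range. The log2 difference was 0.22 ± 0.10 (adjusted p = 0.0919) in the comparison of 3 against 3, and Ndufa6 rose, at 0.35 ± 0.07 on the log2 scale against control libraries 2 and 3 (adjusted p = 7.1e-05). Ndufa7 and the core subunit Ndufs7 did not pass the test in either comparison, with log2 differences of -0.12 ± 0.09 and 0.07 ± 0.07 in the comparison of 3 against 3.

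N module. Ndufv1 (mm10 chromosome 19, 4007499 to 4012755) encodes the core subunit that binds flavin mononucleotide and NADH, the point where electrons enter. It had 61.6, 59.5 and 63.0 CPM in inhibitor libraries 1 to 3, against 86.7, 70.3 and 71.5 CPM in control libraries 1 to 3. The groups did not overlap, and Ndufv1 fell, with a log2 change of -0.31 ± 0.08 (adjusted p = 0.00524), and of -0.21 ± 0.06 against control libraries 2 and 3 (adjusted p = 0.00395). Ndufa12 (mm10 chromosome 10, 94199035 to 94221440), a subunit at the junction of the N and Q modules related in sequence to the assembly factor Ndufaf2, had 30.3, 29.8 and 24.2 CPM in inhibitor libraries 1 to 3, against 45.6, 36.1 and 36.9 CPM in control libraries 1 to 3. All inhibitor values were below all control values, and it fell, with a log2 change of -0.49 ± 0.11 (adjusted p = 0.00223), and of -0.38 ± 0.09 against control libraries 2 and 3 (adjusted p = 0.000556).

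Ndufs1 (mm10 chromosome 1, 63143592 to 63176822), the largest core subunit and a carrier of several iron-sulphur clusters, had 115.1, 107.1 and 106.1 CPM in inhibitor libraries 1 to 3, against 114.9, 116.2 and 120.6 CPM in control libraries 1 to 3. Inhibitor library 1 reached the level of control library 1, and the difference did not pass the test, at -0.10 ± 0.06 (adjusted p = 0.18), and -0.11 ± 0.05 against control libraries 2 and 3 (adjusted p = 0.0585). Ndufs4 (mm10 chromosome 13, 114287795 to 114388094), an accessory subunit whose loss in mice is a model of Leigh syndrome, had 35.3, 41.3 and 40.5 CPM in inhibitor libraries 1 to 3, against 40.3, 37.7 and 37.2 CPM in control libraries 1 to 3. The groups overlapped in both comparisons, with log2 differences of 0.02 ± 0.08 (adjusted p = 0.855) and 0.05 ± 0.08 (adjusted p = 0.62). Ndufv2, Ndufv3, Ndufs6 and Ndufa2 did not pass the test in either comparison either, with log2 differences of -0.08 ± 0.06, -0.22 ± 0.15, -0.23 ± 0.24 and -0.41 ± 0.24 in the comparison of 3 against 3.

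Ndufa4 (mm10 chromosome 6, 11900372 to 11907450) carries a complex I name but its protein is now placed with complex IV. It had 107.7, 107.5 and 100.1 CPM in inhibitor libraries 1 to 3, against 153.8, 120.6 and 126.8 CPM in control libraries 1 to 3. All inhibitor libraries were below all control libraries, with a log2 change of -0.35 ± 0.08 (adjusted p = 0.00343), and -0.24 ± 0.05 against control libraries 2 and 3 (adjusted p = 0.000129). Leaving it out of the set gave 20 of 36 and 18 of 36 genes that fell.

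**Figure D3:**
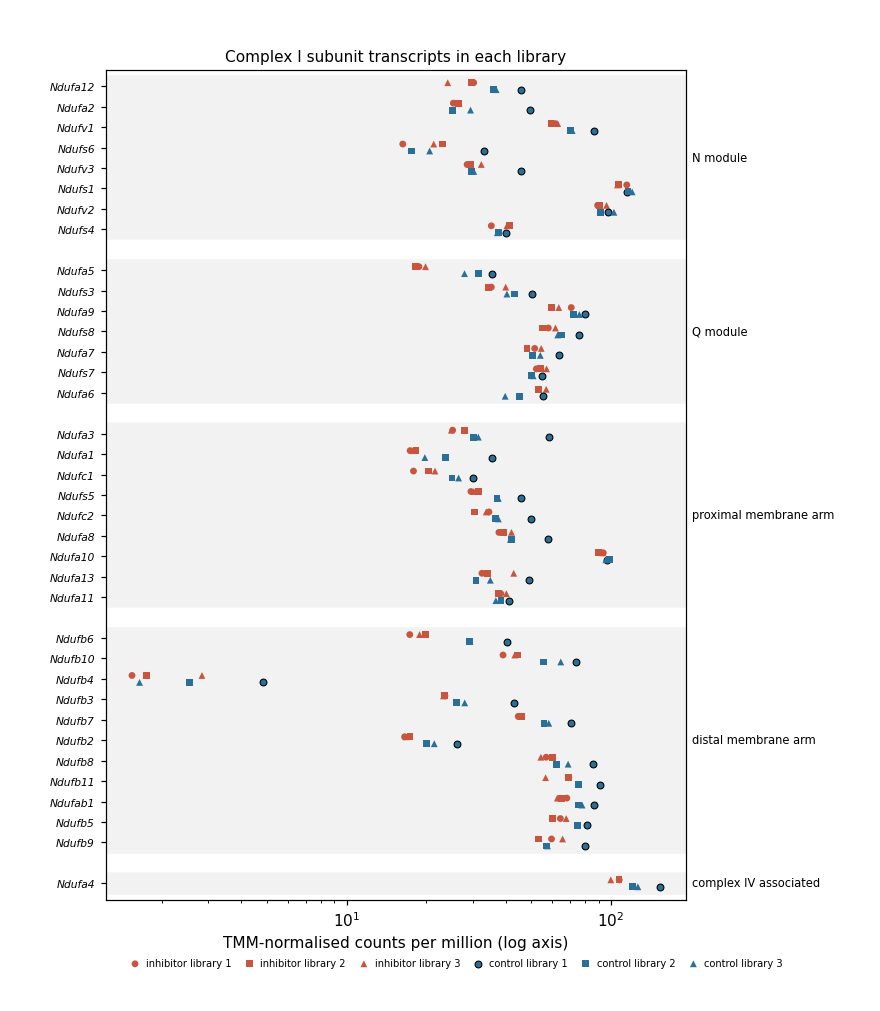
Level of 36 complex I subunit genes in each library (CPM, horizontal logarithmic axis), a row for each gene, grouped by module, with inhibitor libraries drawn above control libraries in each row. In Ndufb6, Ndufb10 and Ndufa5 every inhibitor point lies below every control point, and in Ndufa6 the inhibitor points, 53.2 to 57.0 CPM, lie above control libraries 2 and 3.

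Per length, the subunit transcripts differed widely in level. Dividing CPM by the longest transcript length used in the deposited RPKM values gave a median of 54.6 CPM per kb over the 37 genes and all 6 libraries. Ndufa4 was the highest at 240.3 CPM per kb, followed by Ndufab1 at 132.0 and Ndufb7 at 100.5, and Ndufb4 was the lowest at 5.56. With transcript lengths of the reference annotation the median was 52.8 CPM per kb. The lengths differ for some genes, so their rank is uncertain: Ndufa11 has 2661 bases by the deposited length and 545 by the reference, and Ndufab1 has 551 and 3479. Across the 37 genes the log2 change showed no trend with level per kb, with a Spearman correlation of 0.03 in the comparison of 3 against 3, given as a description over genes that share the same libraries.

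**Figure D4:**
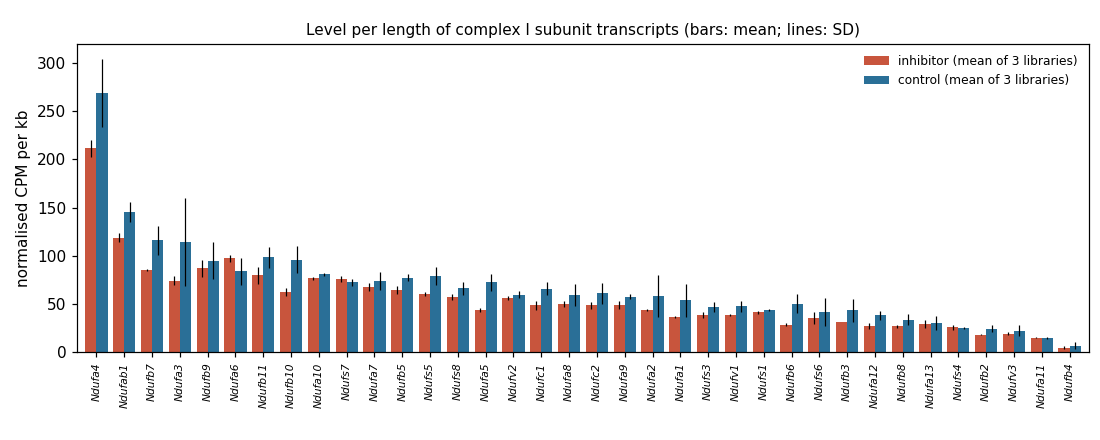
Mean level per kb of transcript (CPM per kb) of 36 complex I subunit genes in inhibitor libraries (left bar) and control libraries (right bar), with lines of 1 SD over 3 libraries, ordered by level. Ndufa4 is the highest and Ndufb4 the lowest, and in 33 of 36 genes the inhibitor bar is below the control bar.

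Most of these transcripts are short, and short transcripts as a class moved in the same direction. By the deposited lengths, the 37 genes had transcripts of 351 to 2665 bases with a median of 760, and 24 were under 1 kb. Of all 974 tested genes under 1 kb, 31.5% were lower and the median log2 change was -0.18, and against control libraries 2 and 3 the values were 27.8% and -0.09. Of the 24 subunit genes in that class, 15 fell in the comparison of 3 against 3 and 14 against control libraries 2 and 3, with medians of -0.37 and -0.22. Among all 3001 genes of 1 to 2 kb, 23.4% were lower with a median of -0.07, and against control libraries 2 and 3, 21.8% with a median of -0.03. Of the 10 subunit genes in that class 5 and 4 fell, with medians of -0.20 and -0.10. Among all genes over 4 kb, where no subunit gene lies, 14.7% were lower and the median was 0.08, and against control libraries 2 and 3 19.6% and 0.04.

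Control library 1 differed from the other controls by transcript length too. Its excess over control libraries 2 and 3 had a median of 0.23 on the log2 scale in all genes under 1 kb, 0.12 at 1 to 2 kb, 0.02 at 2 to 4 kb and -0.10 over 4 kb. Across the 37 genes the log2 change and the log2 transcript length had a Spearman correlation of 0.59 in the comparison of 3 against 3 and 0.37 against control libraries 2 and 3, with genes sharing the same libraries. The corresponding values for GC content were 0.19 and 0.25.

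When each library was corrected for GC content and transcript length by a smooth curve, 21 genes fell and 3 rose in the comparison of 3 against 3, with a median of -0.23. The curve used the reference transcript lengths, not the deposited lengths of the length classes and length correlations above. Ndufa11 thus entered it with 545 bases rather than 2661, and Ndufab1 with 3479 rather than 551. Against control libraries 2 and 3, 21 fell and 2 rose, with a median of -0.20. Without the correction 20.1% and 21.5% of all tested genes fell, and 20.4% and 21.6% rose. Shares over all tested genes under the correction are not given here, so the corrected counts have no background of their own. Ndufa6 and Ndufs7 rose in both corrected comparisons, and Ndufa11 only in that of 3 against 3. The part of transcript length in the uncorrected result was not tested beyond this correction.

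**Figure D5:**
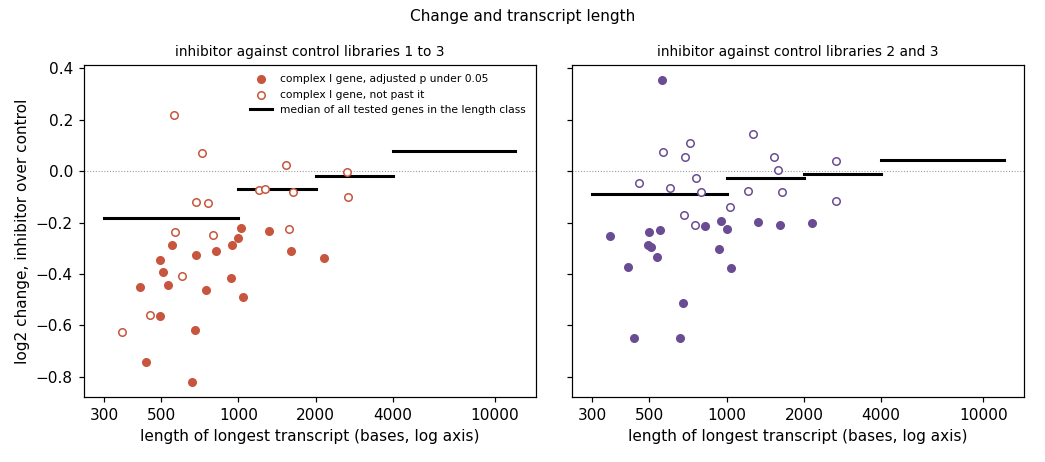
Log2 change, inhibitor over control, against deposited transcript length (bases, logarithmic axis) for 36 complex I subunit genes (filled where past the threshold), beside the median of all tested genes in each length class. All-gene medians run from -0.18 under 1 kb to 0.08 over 4 kb in the comparison of 3 against 3, and the subunit genes under 1 kb have a median of -0.37.

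Some counts may hold reads of other genes. RefSeq lists a gene or pseudogene named after Ndufab1, Ndufb4, Ndufa12, Ndufs6, Ndufs5 and Ndufa11, so their counts are uncertain. By the GENCODE mouse annotation, exons of 10 subunit genes overlap those of another listed gene on the opposite strand. Whether reads were counted by strand is not given in the sources used here. For Ndufb6 the overlap with Smim27 is 257 bases, and Smim27 had 363 counts over all libraries against 3013 for Ndufb6. Some overlapping genes had more counts than the subunit gene. Braf had 9662 against 2286 for Ndufb2, Rbm10 had 10710 against 8434 for Ndufb11, and Mrpl36 had 4755 against 2529 for Ndufs6. Each remaining overlapping gene had fewer counts than its subunit gene. The part of such reads in the subunit counts was not tested. The other overlaps were of Ndufb11 with Rbm10, Ndufb2 with Braf, Ndufb5 with Mrpl47, Ndufa13 with Tssk6, Ndufa2 with Tmco6, Ndufa3 with Tfpt, Ndufs1 with Ino80dos, Ndufs3 with Kbtbd4 and Ndufs6 with Mrpl36, and spanned 4 to 375 bases.

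Other genes of oxidative metabolism were counted by lists chosen by function. Of 40 tested subunits of complexes II to V, 24 fell and 0 rose in the comparison of 3 against 3, and 25 fell and 1 rose against control libraries 2 and 3, with medians of -0.27 and -0.19. Of all tested genes 20.1% fell and 20.4% rose, and 21.5% fell and 21.6% rose against control libraries 2 and 3. The complex I medians were -0.29 and -0.19. Sdhd of complex II fell, at -0.50 ± 0.09 on the log2 scale (adjusted p = 0.000518) and Uqcrq of complex III at -0.60 ± 0.09 (adjusted p = 0.000196). Cox6b1 of complex IV fell, at -0.56 ± 0.12 on the log2 scale (adjusted p = 0.00472) and Atp5o of the ATP synthase at -0.32 ± 0.06 (adjusted p = 0.000398).

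Assembly factors of complex I, which build it but leave the finished enzyme, were also counted. Of 19 tested, 3 fell and 0 rose in each comparison, where 20.1% and 21.5% of all tested genes fell, with medians of -0.12 and -0.09. The 2 with the smallest p were Foxred1, at -0.36 ± 0.09 (adjusted p = 0.00489), and Ndufaf2, at -0.54 ± 0.16 (adjusted p = 0.0154). A difference between the assembly factors and the subunits was not tested.

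In the tricarboxylic acid cycle, which supplies the NADH, 10 of 17 genes fell and 0 rose in each comparison, with medians of -0.19 and -0.15. Idh2, the mitochondrial NADP-dependent isocitrate dehydrogenase, fell, at -0.35 ± 0.05 on the log2 scale (adjusted p = 9.87e-05), and Mdh2, malate dehydrogenase, at -0.28 ± 0.06 (adjusted p = 0.0022). Of 13 iron-sulphur cluster genes 4 fell and 1 rose, and against control libraries 2 and 3, 4 fell and 3 rose, with medians of -0.14 and -0.07. Of 13 ubiquinone synthesis genes 3 fell and 0 rose in each comparison, with medians of -0.19 and -0.09. Of all tested genes 20.1% fell and 20.4% rose, and 21.5% fell and 21.6% rose against control libraries 2 and 3. The ubiquinone count was near this background, and the iron-sulphur counts were not far from it.

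Of 15 fatty acid oxidation genes 4 fell and 1 rose, and against control libraries 2 and 3, 4 fell and 3 rose, with medians of 0.01 and 0.03. These counts were near the background, as 20.1% of all tested genes fell and 20.4% rose, and 21.5% fell and 21.6% rose against control libraries 2 and 3. Cpt1a, which controls fatty acid entry into mitochondria, rose, at 0.21 ± 0.05 on the log2 scale (adjusted p = 0.0048), whereas Etfa, an electron carrier of the pathway, fell, at -0.26 ± 0.06 on the log2 scale (adjusted p = 0.00247).

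Among 13 regulators of mitochondrial gene expression 5 fell and 0 rose, and 4 fell and 0 rose against control libraries 2 and 3. Over all tested genes the shares that fell were 20.1% and 21.5%, and those that rose 20.4% and 21.6%. The leading ones were 2 coactivators of the PGC-1 family. Pprc1 had 86.8, 91.4 and 81.3 CPM before scaling in inhibitor libraries 1 to 3, against 121.4, 129.4 and 144.6 CPM in control libraries 1 to 3. In this gene control library 1 was the lowest control, unlike in most subunit genes. It fell, at -0.61 ± 0.07 on the log2 scale (adjusted p = 4.5e-06), and of -0.66 ± 0.05 against control libraries 2 and 3 (adjusted p = 1.87e-13). Ppargc1b had 17.5, 19.2 and 17.2 CPM in inhibitor libraries, against 26.9, 25.6 and 27.4 CPM in control libraries, and fell, at -0.57 ± 0.09 on the log2 scale (adjusted p = 0.000169). The factors whose motifs were searched were also measured, and are named after their values were seen. Gabpa fell, at -0.16 ± 0.06 on the log2 scale (adjusted p = 0.0385), Esrra fell, at -0.40 ± 0.15 on the log2 scale (adjusted p = 0.042) but not past the threshold against control libraries 2 and 3 (adjusted p = 0.135), and Nrf1 and Yy1 had log2 differences of -0.11 ± 0.07 (adjusted p = 0.208) and 0.02 ± 0.06 (adjusted p = 0.823).

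Markers of other cell types were counted in the comparison of 3 against 3, where 20.1% of all tested genes were lower and 20.4% higher. All 8 megakaryocyte markers were higher, with a summed level of 4310 to 4400 CPM before scaling in inhibitor libraries and 1857 to 2079 CPM in control libraries. Of 7 monocyte and macrophage markers 3 were lower and 0 higher, with sums of 2152 to 2215 CPM in inhibitor libraries and 3539 to 3573 CPM in control libraries. Neutrophil markers were mixed, with 4 of 9 lower and 5 higher. Of 7 tested erythroid markers 0 were lower and 4 higher, and against control libraries 2 and 3, 1 was lower and 4 higher. The list summed to 433 to 445 CPM in inhibitor libraries and 391 to 470 CPM in control libraries, which overlap. Of 5 plasmacytoid dendritic cell markers 3 were lower and 1 higher, and they summed to 814 to 825 CPM in inhibitor libraries and 784 to 904 CPM in control libraries. Their members differed more than the sum, as Ccr9, a homing receptor, had 7.95, 10.5 and 10.96 CPM in inhibitor libraries 1 to 3 and 53.4, 82.5 and 64.7 CPM in control libraries 1 to 3, a log2 change of -2.78 ± 0.17 (adjusted p = 2.73e-07). Siglech was at -0.60 ± 0.11 (adjusted p = 0.000817) and Bst2 at -0.31 ± 0.07 (adjusted p = 0.00282), while Irf8 rose, at 0.24 ± 0.05 (adjusted p = 0.00221). These markers are named after their values were seen. Of 6 mast cell and basophil markers 1 was lower and 2 higher, not far from the shares over all tested genes. Against control libraries 2 and 3, 1 was lower and 3 higher. They summed to 1077 to 1174 CPM in inhibitor libraries and 990 to 1014 CPM in control libraries. Both tested B cell markers were lower, as was 1 of 3 tested T and NK cell markers, and the tested stromal marker did not pass. These 3 lists each summed to at most 18.7 CPM in any library, and no marker was at 0 in all libraries. The part of such differences in cell makeup in the levels of the subunit genes was not tested.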

How the data were processed

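Read counts per RefSeq gene symbol were deposited by the authors for each of the 6 libraries, together with RPKM values and the longest transcript length of each gene, per the file headers. The RPKM values deposited by the authors were used only to check the counts. Reads had been converted with bcl2fastq 2.20 and the build was mm10, per the submitters' processing notes. For the aligner, counter and strand setting, no statement is given in the sources used here. Gene coordinates, promoter windows and the mature microRNA are RefSeq's for GRCm38.p6. The 3′ UTRs, reference transcript lengths, GC content and exon overlaps come from the GENCODE mouse annotation.

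Low genes were removed by filterByExpr (minimum count 10, minimum total 15) and library sizes were set by TMM, with factors of 0.9853 to 1.0076. Groups were compared in R 4.3.3 by the quasi-likelihood F test of edgeR 4.0.16 with its robust option. P-values were adjusted over every tested gene by Benjamini-Hochberg, and calls were made under 0.05. The fit was repeated in full without control library 1. The test was checked on simulated counts with known changes. With 3 against 3 it called 23 of 49 genes changed by 1.25-fold, 37 of 50 changed by 1.5-fold and 11 of 12653 unchanged genes. Against control libraries 2 and 3 it called 29 of 49, 39 of 49 and 4 of 12835. Most genes in these runs were unchanged. In the data, 40.5% of tested genes were called with 3 against 3 and 43.1% against control libraries 2 and 3. The shares called in the runs therefore do not carry over to the data, for which such shares were not tested. A gene that did not pass may still differ by such amounts. Alternatives were RLE scaling, DESeq2 1.42.0, limma 3.58.1 with voom, other filters, a threshold of 0.1, a loess correction of GC content and length, leaving out Rn45s and the 50 most abundant genes, thinning, a replicate block and leaving out libraries. The floor of 3 counts covers counting error only, while SE and SD hold the spread between libraries.

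The members and the gene lists were chosen with earlier results of these data known, so they get no set test and no p of their own. Values per library are given for the 3 members of each module with the smallest p in the comparison of 3 against 3 and the one with the highest log2 change, for the 3 with the highest level per kb, and for those whose call differs between the 2 comparisons. From each pathway list the 2 called genes with the smallest p were eligible. Ndufb2, Ndufb5, Ndufb8, Ndufb11, Ndufb4, Ndufa1 and the members without a call were named after their values were seen. The values of 1 member are not reported here by name, and it is kept in the counts, medians and sums.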

Additional observations from a re-analysis of the deposited data

How the results depend on the processing

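Ndufa12, Ndufa4, Ndufa5, Ndufab1, Ndufb10, Ndufb5, Ndufb6, Ndufb7, Ndufc1 and Ndufs5 fell against control libraries 2 and 3 in the report and in every alternative, 16 fits in all. With 3 against 3, these 10 and Ndufb2 and Ndufv1 fell in all 17 fits. With 3 against 3, the count of subunit genes that fell was 21 or 20 under RLE scaling, DESeq2, thinning, both other filters, the GC and length correction and the removal of abundant genes, 19 with voom, 22 at a threshold of 0.1 and 14 to 22 when a library was left out. It was 15 without inhibitor library 1, 14 without inhibitor library 2 or 3, 19 without control library 1 and 22 without control library 2 or 3. The number of all tested genes called in either direction, 5259 in the report, also moved in these fits. It ran from 4058 to 5692, with 5692 without control library 1. The count that rose, 0 in the report, was 1 with no filter, 1 at the threshold of 0.1, 3 with the GC and length correction and 0 to 1 when a library was left out. Median log2 changes ran from -0.35 to -0.19 when a library was left out, and the ratio of summed levels, 0.843, from 0.815 to 0.902. Against control libraries 2 and 3 the count that fell was 15 with DESeq2 and 17 to 23 under the other settings. It was 11 to 18 when a library was left out, with 11 when control library 3 was. There the median was -0.14 to -0.19, with -0.16 without control library 3 and -0.14 without inhibitor library 2, and the ratio, 0.902, ran from 0.892 to 0.910. The count that rose was 2 with the GC and length correction and 1 in each fit without a library. The cause was not tested.

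Libraries with the same replicate number did not deviate together (correlations of 0.0576, 0.00818 and 0.0366), so the numbers were not taken to pair them. With the replicate number as a block 21 genes fell and 1 rose in the comparison of 3 against 3, and 17 fell and 2 rose against control libraries 2 and 3. In that comparison the blocked Ndufb4 difference was 0.13.

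The genes that changed sign had not passed the test in the report in that comparison. With 3 against 3, Ndufa11 was at 0.0021 with RLE scaling, 0.0024 with the stricter filter, 0.0021 with DESeq2, 0.023 after thinning and 0.19 with the GC and length correction, and from -0.039 to 0.041 when a library was left out. With that correction Ndufa13 was at 0.036, Ndufb9 at 0.031 and Ndufs4 at -0.058. When a library was left out, log2 differences ran for Ndufa13 from -0.20 to 0.14, Ndufb9 from -0.20 to 0.056, Ndufs6 from -0.41 to 0.075, Ndufv3 from -0.33 to 0.0022 and Ndufs4 from -0.021 to 0.090. Against control libraries 2 and 3, Ndufv3 was at -0.0037 with no filter, -0.0016 with voom, -0.018 with the correction and -0.023 after thinning, and Ndufs4 at -0.022 with the correction. When a library was left out there, they ran for Ndufb4 from -0.34 to 0.30, Ndufs6 from -0.034 to 0.22, Ndufv3 from -0.046 to 0.045, Ndufa2 from -0.18 to 0.049, Ndufa7 from -0.078 to 0.025, Ndufv2 from -0.17 to 0.0085 and Ndufb9 from -0.013 to 0.13. Depth limits Ndufb4 most, at 30 to 96 counts per library.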
